A study of Mus musculus with 8 samples.

Results

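Sarcomeric myosin heavy chains are the motor proteins of the thick filaments of striated muscle, and 9 of their genes were examined in the esophagus: Myh3 (embryonic), Myh8 (perinatal), Myh1, Myh2 and Myh4 (adult fast), Myh6 and Myh7 (cardiac, the latter also in slow skeletal fibers), and Myh7b and Myh13 (specialized muscles). The genes were taken by symbol from a table of 32849 gene symbols, and all 9 had counts in all 8 libraries and were among the 14864 genes tested. Myh3 was picked from its difference between the groups in these same libraries, so member differences between groups are given as a description. Counts of members called in the fits across all genes stand beside the share of all genes and are not independent evidence. RNA was selected for poly(A) tails from frozen esophagus tissue of 4 MGL KO and 4 WT mice, and the part of the organ is not stated. MGL KO mice lack monoacylglycerol lipase, which breaks down the endocannabinoid 2-arachidonoylglycerol, in all tissues and not in one cell type. They were bred in the same facility as their WT littermates, and the methods name male and female mice, within a range of young adult ages, for the experiments as a whole and give no age or sex for each library. Nothing in the labels names further alleles or treatments for either group.

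The mouse esophagus is unusual among gut segments because its outer wall is striated along nearly its whole length. A muscle fiber is typed by the heavy chain it expresses: fast fibers use the chains of Myh2, Myh1 or Myh4, in order of rising shortening speed, and slow fibers that of Myh7. Developing fibers use the embryonic and perinatal chains before adult ones replace them, and fibers that regenerate after damage express the embryonic chain again for a time.

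Libraries held between 13479069 and 17090152 counts, and TMM scaling factors lay between 0.82 and 1.11. Levels are normalized CPM, counts relative to library size after this scaling. The targeted gene, Mgll, was at 12.6 to 16.0 CPM in the MGL KO libraries and 66.6 to 88.3 CPM in the WT libraries. Skeletal muscle was present in all libraries, with all 13 of its marker genes counted and a summed level of 29423 CPM in MGL KO replicate 4 and 35542 to 64027 CPM elsewhere. MGL KO replicate 4 stood apart: 6 of 7 cardiac markers were highest there and summed to 454 CPM, against 5.30 to 11.0 CPM elsewhere, with the seventh, Bmp10, at 0. All 8 airway ciliated markers (554 CPM against at most 16.3) and all 6 airway secretory markers (8548 CPM against at most 46.7) were also highest in that library. Summed Y-linked genes lay between 185.6 and 223.7 CPM in every library. In tissue RNA, fewer muscle cells and less RNA per muscle cell cannot be told apart.

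Across all genes, edgeR's quasi-likelihood test called 7 genes after Benjamini-Hochberg adjustment (0.0471% of those tested) and 1285 (8.65%) had an unadjusted p under 0.05. No myosin heavy chain was among the 7, while 3 of the 9 (Myh3, Myh4 and Myh6) had an unadjusted p under 0.05. Myh3 alone was called by the exact test on the same genes, which called 65 genes (0.437%), and by DESeq2, which called 137 (0.922%). It was also the only 1 of the 9 whose groups did not overlap, against 6.02% of all tested genes (2.72% with MGL KO higher and 3.3% lower), and the same held without MGL KO replicate 4, where 10.8% of all genes did not overlap. Myh3 was picked from this contrast in these libraries, so its calls by any of these tools restate that choice, and nothing is read from them.

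Of the genes, 6 (Myh3, Myh2, Myh1, Myh4, Myh8 and Myh13, in that order) lie on the forward strand of chromosome 11 within 293.3 kb (GRCm39, GENCODE annotation). Myh3 spans 66969126 to 66993117 and has 40 exons. Coding lengths of all 9 genes were nearly equal, at 5811 to 5901 bases, whereas exon lengths ran from 6181 bases for Myh13 to 12161 for Myh8. The share of 100-base stretches of the transcripts found in another of the 9 was 0% for Myh7b, 1.10% for Myh3, and highest for Myh6 and Myh7 (11.1% and 11.2%, shared with each other), so reads of that pair are the least certain. Myh6 and Myh7 are neighbors on chromosome 14, and Myh7b is on chromosome 2.

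Upstream sequences are shown for the genes with the largest differences among skeletal chains, Myh3 and Myh4, and for the most abundant pair, Myh8 and Myh1. Each line gives the 250 bases before the transcription start from RefSeq (GRCm38.p6, forward strand, 5′ to 3′), and capitals mark E-boxes (CANNTG, the motif bound by myogenic factors such as MyoD) and matches to the MEF2 motif. The windows are chr11:67078050-67078299 for Myh3, chr11:67237562-67237811 for Myh4, chr11:67276874-67277123 for Myh8 and chr11:67199852-67200101 for Myh1.
Myh3: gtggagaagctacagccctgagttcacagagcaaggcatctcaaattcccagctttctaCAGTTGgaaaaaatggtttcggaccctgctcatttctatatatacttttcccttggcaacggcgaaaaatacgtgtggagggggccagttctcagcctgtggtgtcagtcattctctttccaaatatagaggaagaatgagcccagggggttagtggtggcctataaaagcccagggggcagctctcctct
Myh4: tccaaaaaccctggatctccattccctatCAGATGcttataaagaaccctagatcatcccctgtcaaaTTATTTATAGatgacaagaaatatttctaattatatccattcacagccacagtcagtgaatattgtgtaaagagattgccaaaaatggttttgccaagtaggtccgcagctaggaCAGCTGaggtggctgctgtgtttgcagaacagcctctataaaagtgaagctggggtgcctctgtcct
Myh8: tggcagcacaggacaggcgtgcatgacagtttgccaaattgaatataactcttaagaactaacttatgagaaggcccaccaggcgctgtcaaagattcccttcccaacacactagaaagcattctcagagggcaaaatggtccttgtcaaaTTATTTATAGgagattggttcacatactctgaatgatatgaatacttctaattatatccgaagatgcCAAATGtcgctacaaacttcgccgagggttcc
Myh1: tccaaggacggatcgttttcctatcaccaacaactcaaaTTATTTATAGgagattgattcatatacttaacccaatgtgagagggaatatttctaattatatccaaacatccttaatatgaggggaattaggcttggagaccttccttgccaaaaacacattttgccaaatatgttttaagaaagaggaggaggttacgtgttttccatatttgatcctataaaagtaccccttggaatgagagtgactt
On either strand, the Myh3 window held 1 E-box, 191 bases before the start, and no MEF2 match, and the Myh4 window held 2 E-boxes, 221 and 67 bases before the start, with a MEF2 match at 182 bases. Myh8 had 1 E-box (32 bases) and a MEF2 match (99 bases), and Myh1 had no E-box and a MEF2 match at 211 bases. The MEF2 matches of Myh4, Myh8 and Myh1 each overlap a TATAAA sequence. A TATAAA also lay 29 bases before the start in Myh3, 31 in Myh4 and 32 in Myh1, close to where a TATA box usually lies. Of 32851 RefSeq windows of this length, 66.2% held an E-box, 12.4% TATAAA and 2.92% a MEF2 match.

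Myh3, the chain of embryonic and regenerating fibers, was at 44.7, 61.4, 41.1 and 31.0 CPM in MGL KO replicates 1 to 4. It was at 8.48, 6.73, 13.1 and 12.8 CPM in WT replicates 1 to 4. The groups did not overlap, and the lowest MGL KO value, in replicate 4, was well above the highest WT value, in replicate 3. The means were 44.5 ± 12.6 CPM (SD, n = 4) in MGL KO and 10.3 ± 3.17 CPM (SD, n = 4) in WT esophagi, which differ by 2.11 on the log2 scale (standard error 0.27). The difference rested on 551 to 730 counts per MGL KO library and 118 to 199 per WT library. It stayed between 1.93 and 2.26 with each library left out in turn, and was 2.26 without MGL KO replicate 4.

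Myh4, the chain of the fastest fibers, was at 521, 836, 2050 and 813 CPM in MGL KO replicates 1 to 4 and at 1914, 2354, 3618 and 2758 CPM in WT replicates 1 to 4. MGL KO replicate 3 lay inside the WT range and the other MGL KO libraries below all WT libraries. The means were 1055 ± 679 CPM in MGL KO and 2661 ± 725 CPM in WT esophagi (SD, n = 4). On the log2 scale MGL KO minus WT was -1.33 (standard error 0.41). Myh4 thus had the lowest log2 fold change and Myh3 the highest among the 6 clustered genes.

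Myh8, the perinatal chain, was the most abundant of all genes by mean CPM. It took 2.09% to 2.95% of the counts of 7 libraries, where no gene had more, while the mitochondrial COX1 was first in MGL KO replicate 2. Its levels were 29642, 32902, 28254 and 19190 CPM in MGL KO replicates 1 to 4 and 22786, 27207, 30783 and 28159 CPM in WT replicates 1 to 4. The groups overlapped and differed by 0.01 on the log2 scale (standard error 0.23). Myh1, a fast chain of type IIx fibers, ranked 4 by mean CPM and also overlapped between the groups: 13236, 17858, 13700 and 7866 CPM in MGL KO replicates against 12090, 14976, 17031 and 15695 CPM in WT replicates. Its log2 fold change was -0.18 (standard error 0.26), and in both genes MGL KO replicate 4, the library with the least skeletal muscle signal, was the lowest of the 8.

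Myh2, the chain of type IIa fibers, varied widely in both groups. It was at 513, 1089, 582 and 222 CPM in MGL KO replicates 1 to 4 and at 171, 248, 673 and 805 CPM in WT replicates 1 to 4. The groups overlapped widely, and the log2 fold change of 0.34 (standard error 0.58) turned to -0.11 without MGL KO replicate 2. Myh13, a chain best known from extraocular and laryngeal muscle, was rare, at 0.899 to 1.17 CPM in MGL KO and 1.06 to 1.50 CPM in WT libraries (13 to 25 counts). Myh7b, an ancient relative of Myh7, was at 0.337 to 1.53 CPM in MGL KO and 0.614 to 1.31 CPM in WT libraries (6 to 20 counts). Both pairs of ranges overlapped.

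**Figure D1:**
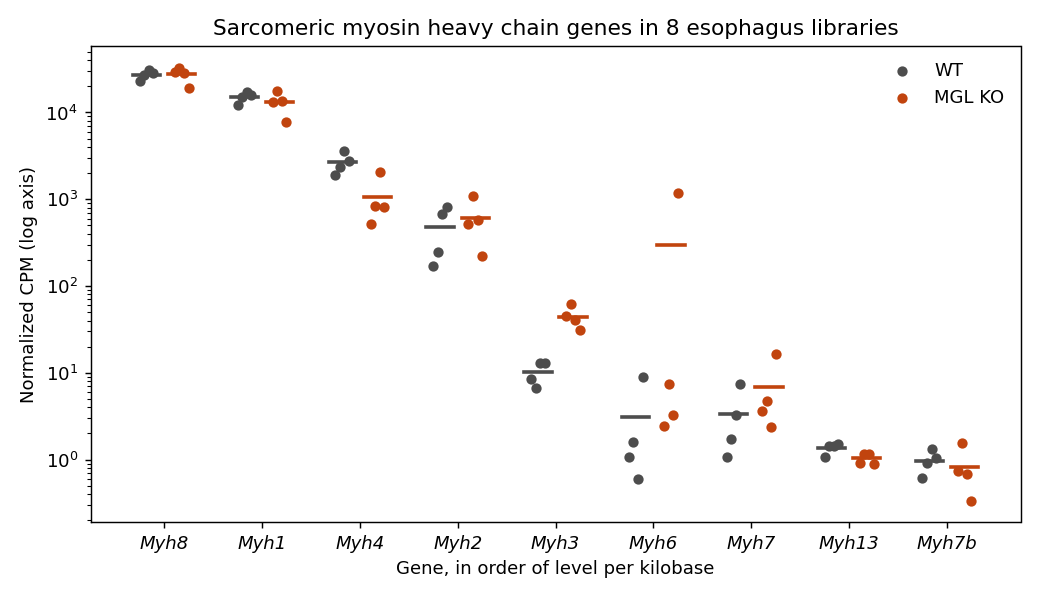
Normalized CPM (log axis) of the 9 sarcomeric myosin heavy chain genes, ordered by level per kilobase. Points are libraries (4 WT, 4 MGL KO) and lines are group means. The Myh3 points of the MGL KO libraries (31.0 to 61.4 CPM) lie above those of the WT libraries (6.73 to 13.1 CPM), and 1 MGL KO library stands apart for Myh6.

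The cardiac chains followed a single library. Myh6, the fast chain of the heart, was at 2.45, 7.49, 3.27 and 1170 CPM in MGL KO replicates 1 to 4 and at 1.06, 1.60, 0.592 and 9.06 CPM in WT replicates 1 to 4. Myh7, the slow chain, was at 3.61, 4.69, 2.40 and 16.6 CPM in MGL KO replicates and at 1.06, 1.71, 3.29 and 7.50 CPM in WT replicates. Within each group, both genes were highest in replicate 4, which in each group also had the highest summed level of the cardiac markers. The log2 fold change of Myh6 went from 6.60 (standard error 2.25) to 0.51 (standard error 0.87) without MGL KO replicate 4, and that of Myh7 from 1.02 (standard error 0.74) to 0.08 (standard error 0.62). Without WT replicate 4 the values were 8.07 for Myh6 and 1.76 for Myh7, and with all libraries Myh6 ranged from 1.43 with limma-voom to 6.72 with library size alone. The ratio of Myh6 to Myh7 was 70.6 in MGL KO replicate 4 and 0.18 to 1.60 in the other libraries. Of the cardiac markers, Myl7 was at 187.3 CPM, Tnni3 at 106.3, Ryr2 at 87.9, Mybpc3 at 65.5 and Nppa at 6.52 in that library. The part of other tissue in these values was not tested.

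**Figure D2:**
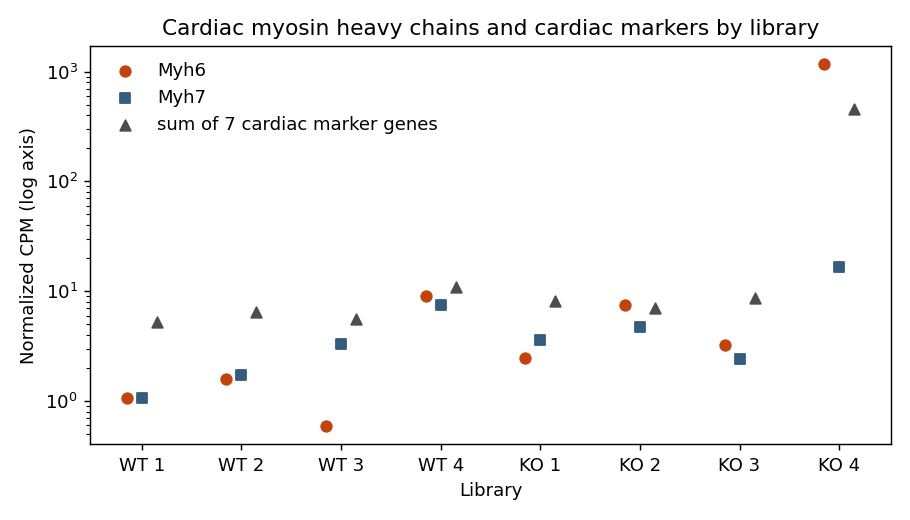
Normalized CPM (log axis) of Myh6, Myh7 and the sum of 7 cardiac marker genes in each library, with WT and KO (MGL KO) replicates 1 to 4 along the horizontal axis. Myh6 and the marker sum rise to 1170 and 454 CPM in MGL KO replicate 4, and the other libraries reach at most 11.0 CPM.

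Each of Myh6, Myh7 and Myh7b carries a microRNA in an intron, and these are shown because a microRNA row of the table moved with the library above. Mature sequences are from RefSeq (GRCm38.p6), 5′ to 3′, with the seed (bases 2 to 8) in capitals.
miR-208a-3p (Myh6): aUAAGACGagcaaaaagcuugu
miR-208b-3p (Myh7): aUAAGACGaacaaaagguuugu
miR-499-5p (Myh7b): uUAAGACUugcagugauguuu
The first pair share the seed UAAGACG and differ at 3 positions (G10A, A16G and C18U, counted from the 5′ end with miR-208a-3p first), whereas miR-499-5p has the seed UAAGACU. The Mir208b row held 38 counts in MGL KO replicate 4 and 0 in the other 7 libraries, where 0 allows up to 0.271 CPM (3 counts, counting error only). The Mir208a row held at most 3 counts and the Mir499 row 0 in all libraries. Poly(A) selection does not retain mature microRNAs.

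To compare levels between genes, CPM were divided by exon length in kilobases. Over all 8 libraries, both groups together, the order of mean log2 level was Myh8, Myh1, Myh4, Myh2, Myh3, Myh6, Myh7, Myh13 and Myh7b. It was the same with coding length and without division, and Myh7 moved above Myh6 without MGL KO replicate 4. The 8 neighboring pairs were compared within libraries by a two-sided exact sign-flip permutation test, adjusted over the 8 pairs, for which 8 libraries allow no p below 0.0078. Myh8 exceeded Myh1 by 0.53 ± 0.17 on the log2 scale (SD, n = 8, exact permutation adjusted p = 0.0208), in 8 of 8 libraries. The size of this gap depends on exon length, 12161 bases for Myh8 and 8908 for Myh1. Their coding lengths were 5811 and 5862 bases, with which the gap is larger. Myh1 exceeded Myh4 by 2.72 ± 0.91 and Myh2 exceeded Myh3 by 3.96 ± 1.05, each in 8 of 8 libraries with the same adjusted p. Myh4 exceeded Myh2 by 2.16 ± 1.37 and Myh13 exceeded Myh7b by 0.36 ± 0.23, each in 7 of 8 libraries (exact permutation adjusted p = 0.025). Myh3 and Myh6 (adjusted p = 0.125), Myh6 and Myh7 (0.617) and Myh7 and Myh13 (0.286) did not differ beyond their spread in these exact permutation tests (n = 8). Myh3 was above Myh6 in 7 of 8 libraries, and the exception was MGL KO replicate 4, the library with high cardiac markers, where Myh6 was at 117.3 and Myh3 at 4.72 CPM per kilobase. The gaps were not equal in the groups: Myh4 exceeded Myh2 by 1.21 on the log2 scale in MGL KO and 3.11 in WT libraries, Myh2 exceeded Myh3 by 3.16 and 4.76, and Myh1 exceeded Myh4 by 3.35 and 2.09. Myh6 minus Myh7 was 1.64 in MGL KO, where replicate 4 stood apart, and -0.31 in WT libraries, where Myh7 was thus the higher. Myh7 minus Myh13 was 0.94 in MGL KO and -0.01 in WT libraries. These log2 levels include a pseudocount of 1 CPM, close to the levels of Myh13 and Myh7b themselves. Without it, mean WT levels were 0.339 CPM per kilobase for Myh7 and 0.220 for Myh13, so the order of this pair is not settled.

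The summed level of the 9 genes was 4005 ± 934 CPM per kilobase in MGL KO and 4377 ± 640 in WT esophagi (SD, n = 4). Shares of this pool were given by gene to set aside differences in muscle content, with the caution that shares sum to 100% and so are not independent. Myh3 made up 0.167%, 0.188%, 0.147% and 0.173% of the pool in MGL KO replicates 1 to 4 and 0.0365%, 0.0239%, 0.0393% and 0.0426% in WT replicates 1 to 4. The perinatal Myh8 held 54.4% to 59.9% in MGL KO and 49.9% to 52.9% in WT libraries. Myh4 held 1.93% to 7.29% in MGL KO and 8.16% to 10.8% in WT libraries. For these 3 genes the groups did not overlap, against 3.59% of all tested genes divided by the same pool. Myh1 (32.3% to 40.3% and 37.7% to 39.1%) and Myh2 (0.942% to 2.54% and 0.559% to 2.04%) overlapped between MGL KO and WT. With coding length in place of exon length the Myh8 share was 64.8 ± 2.26% in MGL KO and 60.4 ± 1.20% in WT esophagi (SD, n = 4), again without overlap.

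**Figure D3:**
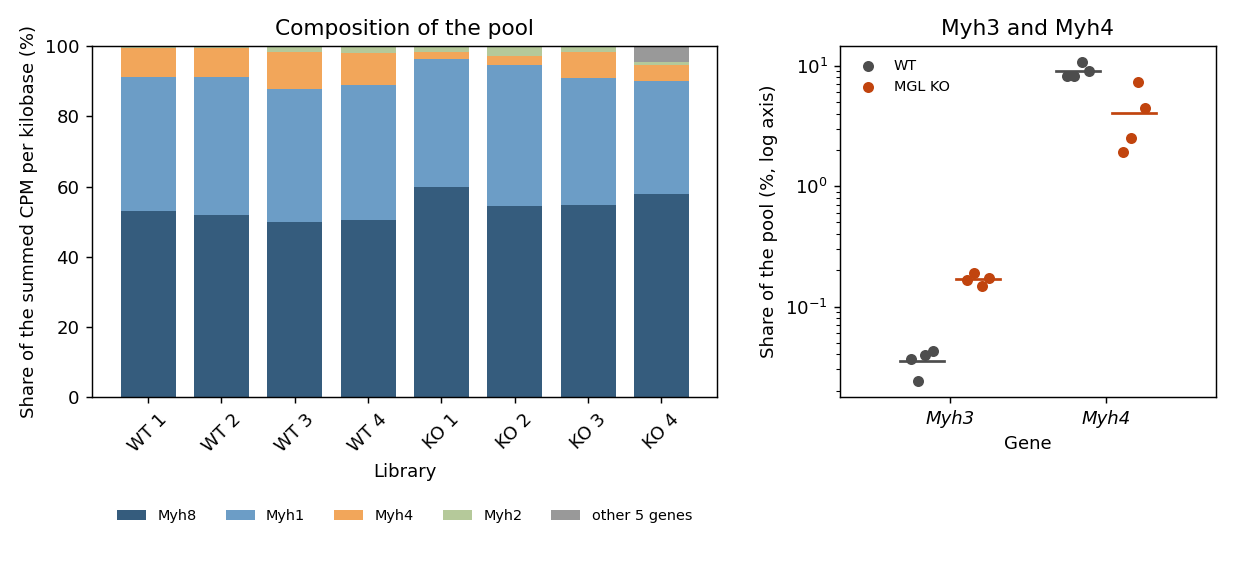
Left, share (%) of each gene in the summed CPM per kilobase of the 9 sarcomeric myosin heavy chains, in bars for each library (KO, MGL KO). Right, shares of Myh3 and Myh4 on a log axis, with points for libraries and lines for group means. The Myh4 band is narrower in MGL KO libraries (1.93% to 7.29%) than in WT libraries (8.16% to 10.8%).

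Levels were also divided by the summed level of the 13 other skeletal muscle genes. Per 1000 units of that sum, Myh3 was at 0.960, 0.958, 0.920 and 1.05 in MGL KO replicates 1 to 4 and at 0.239, 0.158, 0.242 and 0.298 in WT replicates 1 to 4. The coefficient of variation of Myh3 among MGL KO libraries went from 28.4% in CPM to 5.77% on this scale, and among WT libraries from 30.9% to 24.5%. The ratio of group means of Myh3 was 4.15. Myh4 was at 11.2 to 46.0 in MGL KO and 53.9 to 67.0 in WT libraries, and Myh1 at 267.3 to 307.1 and 315.3 to 364.4, so that these genes and Myh3, 3 of 9, did not overlap. On the same scale 1.84% of all tested genes did not overlap. Myh8, at 513.9 to 652.2 in MGL KO and 569.9 to 653.8 in WT libraries, did overlap.

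**Figure D4:**
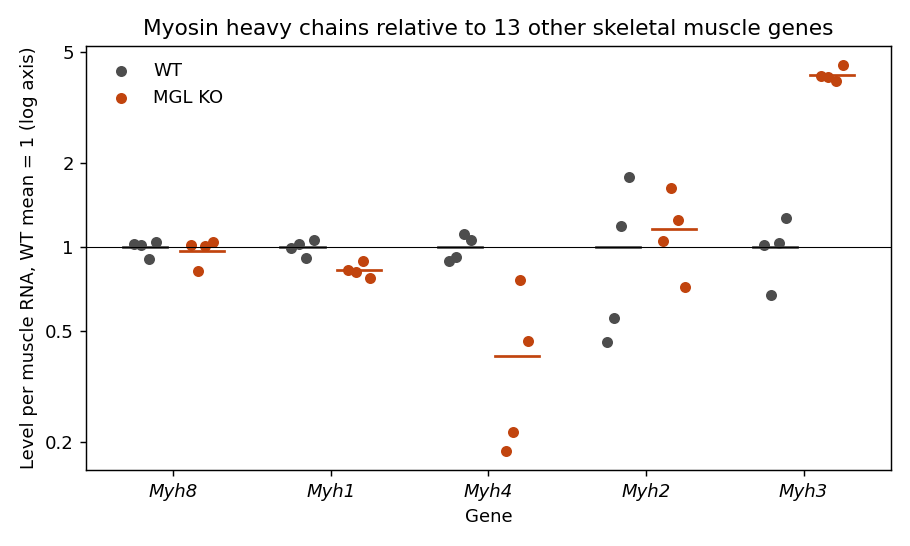
Levels of 5 skeletal myosin heavy chain genes divided by the summed level of 13 other skeletal muscle genes, relative to the WT mean (log axis). Points are libraries and lines group means. Myh3 lies near 4.15 times the WT mean in all MGL KO libraries, Myh4 below 1 in all of them, and Myh8 near 1.

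Genes beside Myh3 had smaller differences between the groups, which were not tested against that of Myh3. Sco1, a copper chaperone gene on its left side, was at 9.43 to 10.5 CPM in MGL KO and 8.09 to 10.4 CPM in WT libraries (log2 fold change 0.14, standard error 0.15). The noncoding 2310065F04Rik on its right side, on the reverse strand, was at 14.6 to 36.5 and 23.0 to 33.5 CPM (-0.05, standard error 0.26). Myhas, a noncoding RNA antisense to the region from Myh1 to Myh4, was at 7.92 to 23.6 and 15.1 to 26.6 CPM (-0.27, standard error 0.32). The adjusted p was 0.778, 0.964 and 0.807 for these genes in edgeR's quasi-likelihood test. Use of strand in the counting was not given, so reads of Myhas and of Myh1 or Myh4 cannot be told apart. Mir6923, inside Myh3, was listed and not tested, and 4 further annotated genes of the interval were not analysed here.

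**Figure D5:**
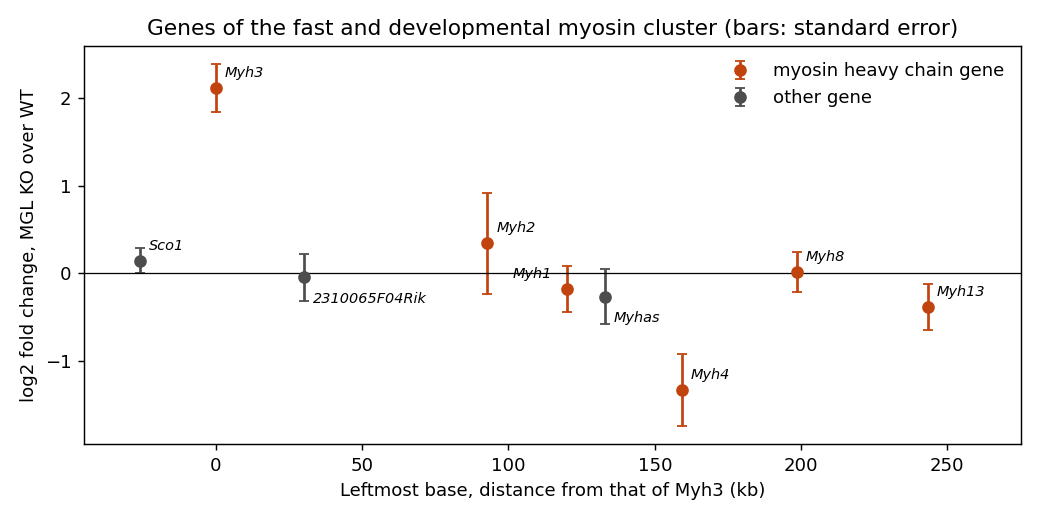
Log2 fold change (MGL KO over WT, bars for standard errors) of the tested genes of the cluster and of Sco1 beside it, by distance in kb of each gene's leftmost base from that of Myh3. Myh3 is highest at 2.11 and Myh4 lowest at -1.33, with the other genes between -0.39 and 0.34.

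Within groups, the deviations of log2 CPM from the group mean were compared over the 8 libraries, which share muscle content and depth as sources of variation. Myh1 and Myh8 varied together most closely (r = 0.98). Myh7b also varied with Myh1 (r = 0.93) and Myh8 (r = 0.90), and at 6 to 20 counts per library its log2 values are uncertain. Myh3 deviated most like Myh2 (r = 0.92, Spearman's rho = 0.88) and Myh7b (r = 0.83, rho = 0.86), then Myh1 (r = 0.76, rho = 0.86) and Myh8 (r = 0.76, rho = 0.86), and least like Myh4 (r = 0.16, rho = 0.21) and Myh7 (r = 0.07, rho = 0.26) among those with a positive value. Among all other tested genes, those most alike included Wdr53, 2310009B15Rik, Pramel12 and Anapc4 (r from 0.96 to 0.98). The log2 fold changes of these 4 genes lay between -0.12 and 0.12, against 2.11 for Myh3.

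Genes that work with the heavy chains were described by lists, 60 tested genes in all. None was called by edgeR's quasi-likelihood test, 1 was called by the exact test and 2 by DESeq2, and 14 (23.3%) had an unadjusted p under 0.05, 9 higher and 5 lower in MGL KO, against 8.65% of all tested genes. Without MGL KO replicate 4, 11 (18.3%) had such a p, 10 higher and 1 lower, against 9.36% of all genes. The median log2 fold change over all tested genes was 0.02.

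Of 10 fast fiber sarcomere genes, 6 were higher and 4 lower in MGL KO (median log2 fold change 0.02), and without MGL KO replicate 4, the library lowest in skeletal muscle markers, 7 were higher and 3 lower (median 0.19). Troponin T3 (Tnnt3, 0.13, standard error 0.37), the calcium pump Atp2a1 (-0.15, standard error 0.18) and troponin I2 (Tnni2, 0.10, standard error 0.40) were the most abundant. Of 8 slow fiber genes, 6 were higher and 2 lower (median 0.49), or 7 and 1 without that library (median 0.50), with the light chain Myl3 at 0.13 (standard error 0.34), Csrp3 at 0.37 (standard error 0.33) and Myoz2 at 0.92 (standard error 0.44). None of the 18 had an adjusted p under 0.05 in edgeR's quasi-likelihood test. Tnnc1, shared by slow and cardiac muscle, had a log2 fold change of 2.89 with all libraries and 0.45 without MGL KO replicate 4.

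Of 12 embryonic and regenerating muscle genes, 6 were higher and 6 lower (median 0.19), or 8 and 4 without MGL KO replicate 4 (median 0.11), and 4 had an unadjusted p under 0.05, all higher, against 8.65% of all tested genes. Without MGL KO replicate 4 this count was 3, all higher, against 9.36% of all genes: Tnnt2 and Ankrd1, both highest in that library, no longer had such a p, and Myog did. Cardiac actin Actc1 (-0.28, standard error 0.29), the actin-binding Xirp1 (0.42, standard error 0.15) and Tnnt2 (1.76, standard error 0.70) were the most abundant, and Tnnt2 fell to 0.36 without MGL KO replicate 4. Myod1, the gene of the myogenic factor MyoD, was named after its values were seen: it was at 29.0, 45.4, 36.5 and 24.5 CPM in MGL KO replicates 1 to 4 and at 17.3, 18.9, 18.1 and 11.7 CPM in WT replicates 1 to 4. All MGL KO libraries lay above all WT libraries (log2 fold change 1.03 with its standard error of 0.22), and the adjusted p was 0.306 in edgeR's quasi-likelihood test and passed 0.05 in the exact test and DESeq2. Myog, its downstream partner, was higher by 0.51 on the log2 scale (standard error 0.30), and Myf5 had a value of -0.06 (standard error 0.22).

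Of 13 genes of thick filament assembly and turnover, 6 were higher and 7 lower (median -0.00). Without MGL KO replicate 4, 11 were higher and 2 lower (median 0.12), so the split of this list rested on that library. The M-line and thick filament proteins Myom1 (0.06, standard error 0.18) and Mybpc1 (-0.14, standard error 0.22) were among the most abundant, and Unc45b, a chaperone that folds the myosin head, had a log2 fold change of -0.12 (standard error 0.16). Hsp90aa1, the partner of that chaperone and also a general stress gene, was at 263.2 to 686.9 CPM in MGL KO and 192.0 to 248.6 CPM in WT libraries, without overlap (log2 fold change 1.00, standard error 0.27). Without MGL KO replicate 4, where Hsp90aa1 was highest, its log2 fold change was 0.69 (standard error 0.19). With all libraries its adjusted p was 0.478 in edgeR's quasi-likelihood test, and it was called by DESeq2. Of 17 transcription factors linked to fiber type, 8 were higher and 9 lower (median -0.10), and the split was the same without that library (median -0.02), with Mef2c at 0.06 (standard error 0.26), Nfix at -0.10 (standard error 0.13) and Tbx15 at 0.05 (standard error 0.28). Sox6 was at 46.9 to 66.8 CPM in MGL KO and 69.0 to 80.9 CPM in WT libraries, without overlap. Its log2 fold change was -0.32 (standard error 0.13, adjusted p = 0.550 in edgeR's quasi-likelihood test). Without MGL KO replicate 4 it was -0.21 (standard error 0.10). In this list 2 genes with an unadjusted p under 0.05 in that test were higher, Vgll2 (1.73) and Nfatc1 (0.36). With such a p, 3 were lower: Sox6, Maf (-0.39) and Ppargc1a (-0.34). Without MGL KO replicate 4 the counts were 2 and 0. Of all tested genes, 8.65% had such a p, or 9.36% without that library. Unc45b, Hsp90aa1, Sox6, Vgll2, Nfatc1, Maf, Ppargc1a, Tnnc1, Ankrd1, Myog and Myf5 were also named after their values were seen.

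Heavy chains of other myosins were set beside the sarcomeric ones. The nonmuscle Myh9 (0.04, standard error 0.27) and Myh10 (0.11, standard error 0.14) and the smooth muscle Myh11 (-0.11, standard error 0.32) overlapped between the groups. Myh14, a nonmuscle chain of epithelia, was at 246.6 to 433.7 CPM in MGL KO and 171.4 to 223.0 CPM in WT libraries, without overlap, and its log2 fold change of 0.68 (standard error 0.18) became 0.52 without MGL KO replicate 4. Myh15 had at most 5 counts per library and was not tested.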

How the data were processed

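RNA-seq counts of 4 MGL KO and 4 WT esophagi were used, grouped by the genotype in the labels. Per the labels and the study's methods, the authors checked reads with FastQC 0.11.9, trimmed them with cutadapt, aligned them to GRCm39 with STAR 2.7.10b and deposited raw counts per gene symbol. The counting tool, annotation and use of strand are not given in the sources used here. Counts on a symbol shared by similar transcripts or by overlapping genes depend on those choices. The instrument was 1 of a pair of NovaSeq models, not given per library. All value columns belonged to the 8 libraries, leaving 0 unused.

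Genes were kept with filterByExpr (minimum count 10), scaled by TMM, and compared by edgeR 4.0.16 quasi-likelihood tests in R 4.3.3 with a threshold of 0.05. The authors used the exact test of edgeR, tried here as an alternative with DESeq2 1.42.0 and limma 3.58.1, beside other scalings, filters, covariates and leaving out each library. Log2 levels between genes used a pseudocount of 1 CPM. Intervals of 3 counts cover counting error only. Scripts were tested on simulated data. Nothing states that libraries of a group came from separate litters, so p-values measure the spread between these mice. No libraries of a group agreed within sampling noise (chi-square per degree of freedom at least 13.6).

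Genes named were the 9 members, Mgll, Myh9, Myh10, Myh11, Myh14 and Myh15, the 3 most abundant genes of each list and any called, the 5 most like Myh3, its neighbors, and markers highest in the library that stood apart. Some genes that this rule names are not reported here. Members and lists were chosen with earlier results of these data known. Positions are from GENCODE M39 on GRCm39. Upstream and microRNA sequences are from RefSeq on GRCm38.p6, and coordinates of both builds were kept apart. Myod1 and others named outside this rule are marked.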

Additional observations from a re-analysis of the deposited data

Results flagged for a closer look

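In groups of 4 libraries, 62 sets of values (per group, the levels of the 9 genes, Mgll, Myh9, Myh10, Myh11 and Myh14, the pool shares of the 9 genes, their summed level and 7 marker sums) were checked for a library whose gap to the nearest other exceeded Dixon's critical share of the whole range. Chance alone flags about 1 in 20 groups, or 3.1 of 62, and 10 were flagged. The sets share libraries and genes and are not independent.

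In MGL KO replicate 4, Myh6 was at 1170 CPM (next 7.49) and held 4.29% of the pool (next 0.0151%). Myh7 in the same library was at 16.6 CPM (next 4.69) and 0.0607% of the pool (next 0.00945%). The marker sums of that library were 454 CPM for cardiac muscle (next 8.76), 554 CPM for airway ciliated cells (next 16.3) and 8548 CPM for airway secretory cells (next 46.7).

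In WT replicate 4, Myh6 was at 9.06 CPM (next 1.60) and 0.0198% of the pool (next 0.00372%). In WT replicate 1, Myh13 was at 1.06 CPM, below the next value of 1.43.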

How the results depend on the processing

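The number of genes called, 7 with edgeR's quasi-likelihood test, was 65 and 42 with the exact test on filtered and on all counted genes, 137 with DESeq2, 25 with limma-voom and with a skeletal muscle covariate, 2 with a robust fit and without the filter, 3 with a Y-linked covariate, and 2 to 5 with each library left out. Calls among the 9 sarcomeric chains went from 0 to 1, always Myh3, with both exact tests, DESeq2, limma-voom, library size alone, at least 10 counts in every library and the muscle covariate. Myh3 was picked from this contrast in these libraries, so these calls restate that choice and are not independent evidence. Calls in the pathway lists went from 0 to 1 with both exact tests and to 2 with DESeq2. The cause was not tested.

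The numbers 1 to 4 did not pair the libraries: correlations of same-numbered deviations were -0.17, -0.31, -0.21 and 0.05, and 0 of 4 MGL KO libraries correlated best with its own number. The replicate block gave 2 called genes.

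Of 8 neighboring pairs in the order of levels, 5 passed, and 6 did with coding length or without division by length. With each library left out 3 to 6 passed: 6 without MGL KO replicate 4, and 3 without MGL KO replicate 1 or 3 or any WT replicate. With a library left out, the smallest p that this test allows is larger than with all 8. These counts are thus not like for like, and what moved each of them was not tested. The log2 fold change of Myh3 stayed between 2.05 and 2.19 over 13 alternatives that kept all libraries. That of Myh4 lay between -1.49 and -1.31 there and between -1.88 and -1.11 with each library left out. Myh2 turned negative (-0.11) without MGL KO replicate 2. Myh8, at 0.01, took either sign, from -0.08 to 0.15 with each library left out and from -0.05 to 0.04 over alternatives that kept all libraries. At 6 to 25 counts per library, Myh7b and Myh13 had the fewest counts on average.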
